A study of Mus musculus with 96 samples.

Results

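The clones described here are barcoded mouse leukaemias that began as LSK cells, an immature blood progenitor population sorted as Lin-, c-Kit+, Sca-1+, and that were grown in Ptprca mice with or without a competing leukaemia. They were taken as the barcodes named GFP in the table of the Ptprca mice, with every column rescaled to its own GFP reads. The comparison rests on 28 of the 96 sample records, which the authors had collapsed into 14 of the 25 columns of that table. It covers 1301 GFP barcodes of the 4382 listed.

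The mice called mixed here were Ptprca recipients 17, 18, 19 and 20, which received LSK-derived leukaemia (GFP barcodes) together with leukaemia that began as granulocyte-monocyte progenitors, or GMP (mCherry barcodes). The LSK-only mice were Ptprca recipients 1, 2 and 3, which received LSK-derived leukaemia alone. In both, the donor cells came from bone marrow of female C57BL/6 mice aged 6 to 8 weeks, were transduced with an MLL-AF9 retrovirus and with SPLINTR barcode libraries, and were cultured in IL-3, IL-6 and SCF. The labels describe a single sorted LSK pool, so all LSK clones share it, and they give neither the cell dose nor the age of the recipients and name no treatment of them. Bone marrow and spleen of each mouse were sequenced. LSK_T0, the LSK pool before transplantation, and GMPLSK_T0, the mixed pool, were each sequenced as 2 PCR duplicates, collapsed into 1 column per pool. The design names an in vivo competition between cells of origin, and this comparison asks how LSK clones fared with and without the GMP-derived leukaemia beside them.

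MLL-AF9 joins a histone methyltransferase gene to a partner of the transcription elongation machinery and keeps genes of the stem cell programme, such as the Hoxa cluster and Meis1, active in myeloid progenitors. In mice it gives an acute myeloid leukaemia that fills bone marrow and spleen. The LSK gate holds haematopoietic stem cells and multipotent progenitors, and GMP are their myeloid-committed descendants. A heritable barcode marks all descendants of a transduced founder, so the spread of barcode reads over names describes how many founders still contribute and how unequally, but a share of reads gives no number of cells. The barcodes are known here only by name, and no sequence of theirs was used.

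GFP barcodes held 32.4% to 50.1% of the reads in the 8 mixed columns and 99.94% to 99.98% in the 6 LSK-only columns, so the GFP reads behind each column numbered 1863456 to 3445740 in mixed and 5472175 to 7574760 in LSK-only mice. A clone with 0 reads can hold up to 8.71e-05% to 0.000161% of GFP reads in mixed mice and 3.96e-05% to 5.48e-05% in LSK-only mice (3 reads, a limit for counting error only, since PCR copies were not told apart by molecular tags). In the 4 GMP-only mice, which received no GFP cells, 16 to 58 GFP barcodes had a read and 0 to 5 reached 100 CPM (counts per 1000000 reads), and GFP reads made up 0.00619% to 0.944%. The spleen of mixed mouse 18 stood apart with 1.06% of its reads in barcodes of no pool, though these made up 0.00645% of its GFP reads. GMPLSK_T0 held 50.6% GFP reads, so an LSK clone made up a smaller part of the mixed graft than of the LSK graft. Competition with GMP-derived cells and a lower share of LSK cells in the graft therefore cannot be told apart.

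The same LSK clones were in both grafts at nearly the same proportions. LSK_T0 held 1209 GFP barcodes and GMPLSK_T0 held 1126, and 1107 were in both. Among the 676 barcodes that averaged at least 100 per 1000000 GFP reads in the pools, log2 shares correlated at r = 0.986. This is across clones, which share the same 2 pool columns. Of these barcodes, 89.9% differed by less than 0.5 on the log2 scale. No single clone dominated either pool, but shares were unequal. The 100 largest clones held 63.6% of GFP reads in GMPLSK_T0 and 64.7% in LSK_T0. The largest clone made up 2.47% of GFP reads in GMPLSK_T0 and 2.55% in LSK_T0, and the effective number of clones was 307 in GMPLSK_T0 and 296 in LSK_T0. The effective number is the exponential of the Shannon entropy of the shares, which is the number of equal clones that would be as diverse.

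Fewer LSK clones were counted in mixed than in LSK-only mice in both tissues, most clearly when all columns were brought to the same depth. Thinned to 1863456 GFP reads, the lowest total, bone marrow held 207, 206, 184 and 219 clones with a read in mixed mice 17, 18, 19 and 20, against 286, 264 and 300 (299.75) in LSK-only mice 1, 2 and 3. Spleen held 199.8, 180 (179.52), 201 and 222 clones in mixed mice, against 242, 254 and 274 in LSK-only mice. No mixed mouse reached the lowest LSK-only mouse in either tissue. Means were 204 ± 14.4 in mixed and 284 ± 17.8 in LSK-only bone marrow, and 201 ± 17.5 in mixed and 257 ± 15.99 in LSK-only spleen (SD, n = 4 and 3). Mixed mice thus had 0.719 times the LSK-only number in bone marrow and 0.780 times in spleen. Each difference gave the smallest p that an exact two-sided permutation test of 4 against 3 mice allows, 0.0286, and an adjusted p of 0.0952 over the 10 tests of clone number and dominance, which misses the threshold of 0.05. Equal GFP reads need not be equal sampling of LSK cells, because GFP barcodes were only part of each mixed library and the number of GFP genomes amplified is not given. These numbers include barcodes with a few reads, a level at which GMP-only mice also showed GFP barcodes.

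Counting only clones at or over 100 per 1000000 GFP reads (0.01%), called detected here, gave a smaller gap. Bone marrow held 97, 106, 97 and 112 detected clones in mixed mice 17, 18, 19 and 20, against 110, 113 and 126 in LSK-only mice 1, 2 and 3. The groups overlapped, because mixed mouse 20 lay above LSK-only mouse 1. Spleen held 58, 57, 64 and 60 detected clones in mixed mice, against 65, 65 and 73 in LSK-only mice, without overlap. Means were 103 ± 7.35 in mixed and 116 ± 8.50 in LSK-only bone marrow (exact permutation p = 0.0857, adjusted 0.0952), and 59.8 ± 3.10 in mixed and 67.7 ± 4.62 in LSK-only spleen (exact permutation p = 0.0571, adjusted 0.0952). The mixed number was 0.885 times the LSK-only one in bone marrow and 0.883 times in spleen. With 686 GFP clones at that level in GMPLSK_T0 and 679 in LSK_T0, either kind of mouse kept a minority of the clones it was given.

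**Figure D1:**
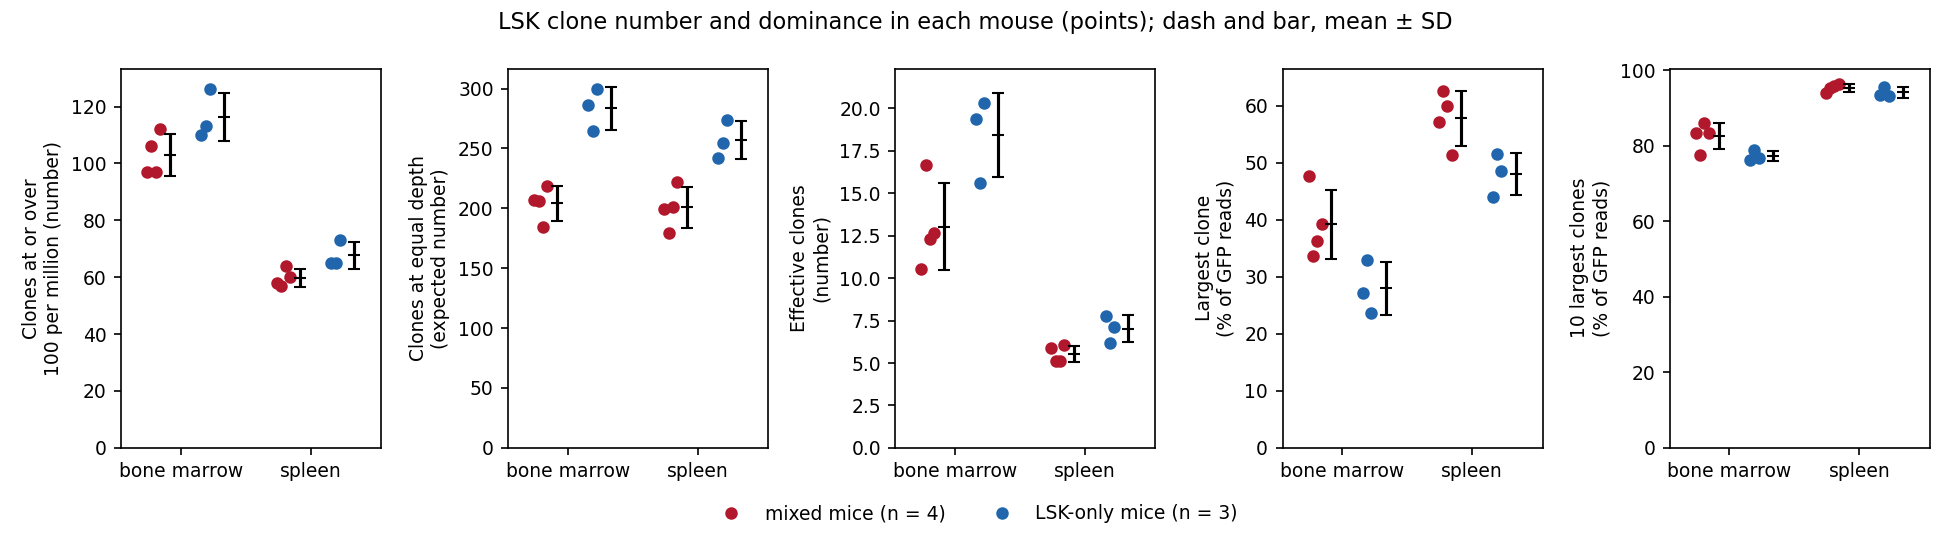
Number and dominance of LSK clones, from left to right detected clones, clones at equal depth, effective clones, the largest clone and the 10 largest clones (the last 2 in % of GFP reads). Points are mice, red mixed (n = 4) and blue LSK-only (n = 3), with mean ± SD beside them; clones at equal depth do not overlap between the groups in either tissue.

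The largest LSK clone averaged a larger share of GFP reads in mixed than in LSK-only mice. In all 14 columns that clone was GFP_Barcode_1859, which ranked 47 in GMPLSK_T0 at 0.541% and 60 in LSK_T0 at 0.462%. In bone marrow it held 47.6%, 33.6%, 36.2% and 39.2% of GFP reads in mixed mice 17, 18, 19 and 20, against 27.2%, 33.0% and 23.7% in LSK-only mice 1, 2 and 3. The groups did not overlap, with mixed mouse 18 just above LSK-only mouse 2. In spleen it held 57.1%, 62.6%, 59.99% and 51.40% in mixed mice, against 44.1%, 51.44% and 48.5% in LSK-only mice, where mixed mouse 20 and LSK-only mouse 2 were nearly equal. Means were 39.2% ± 6.08 in mixed and 28.0% ± 4.70 in LSK-only bone marrow, 11.2 points apart (exact permutation p = 0.0571, adjusted 0.0952), and 57.8% ± 4.80 in mixed and 48.0% ± 3.72 in LSK-only spleen, 9.79 points apart (exact permutation p = 0.0857, adjusted 0.0952).

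Effective clones averaged fewer in mixed mice. Bone marrow of mixed mice 17, 18, 19 and 20 had 10.5, 16.65, 12.3 and 12.7 effective clones, against 19.4, 15.6 and 20.3 in LSK-only mice 1, 2 and 3, with mixed mouse 18 above LSK-only mouse 2. Spleen had 5.89, 5.13, 5.10 and 6.03 effective clones in mixed mice, against 7.77, 6.21 and 7.11 in LSK-only mice, without overlap. The mixed mean was 13.04 ± 2.58 against 18.4 ± 2.47 in bone marrow (0.702 times, exact permutation p = 0.0857, adjusted 0.0952) and 5.54 ± 0.492 against 7.03 ± 0.787 in spleen (0.789 times, exact permutation p = 0.0286, adjusted 0.0952). The 10 largest clones of a column held 82.6% ± 3.56 of GFP reads in mixed and 77.3% ± 1.42 in LSK-only bone marrow (exact permutation p = 0.0857, adjusted 0.0952), and 95.4% ± 1.08 in mixed and 94.1% ± 1.36 in LSK-only spleen (exact permutation p = 0.2, adjusted 0.2). None of the 10 measures passed the adjusted threshold, while each of the 10 differed towards fewer clones or more dominance in mixed mice. The 10 measures come from the same 7 mice and are not independent.

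**Figure D2:**
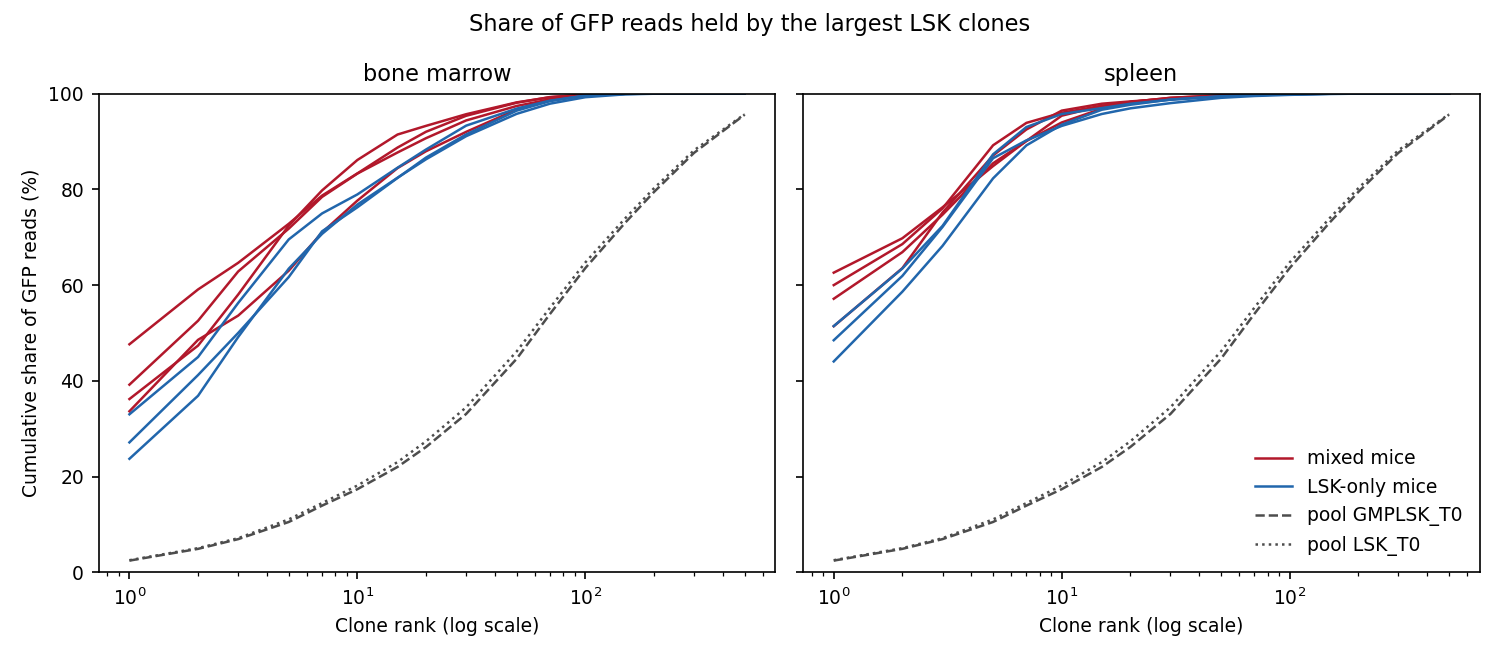
Cumulative share of GFP reads (%, vertical axis) held by the largest LSK clones (rank, log scale), 1 line per mouse, red mixed and blue LSK-only, with the 2 pools in grey. The lines start between 33.6% and 47.6% in mixed and 23.7% and 33.0% in LSK-only bone marrow.

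The gap in dominance was small without GFP_Barcode_1859. With that clone left out and the other GFP clones rescaled to their own total, an alternative chosen after seeing the data, effective clones were 22.6 ± 3.46 in mixed and 24.99 ± 1.36 in LSK-only bone marrow and 11.7 ± 1.73 in mixed and 11.2 ± 0.761 in LSK-only spleen, and the groups overlapped in both tissues. The largest remaining clone held 20.9% ± 2.32 in mixed and 18.1% ± 1.06 in LSK-only bone marrow, and 22.1% ± 2.41 in mixed and 25.6% ± 0.753 in LSK-only spleen, so that the spleen difference changed sign. Detected clones then numbered 113.5 ± 4.80 in mixed and 123 ± 9.61 in LSK-only bone marrow and 88.5 ± 5.51 in mixed and 91.7 ± 10.6 in LSK-only spleen, with overlap in both. The number of clones at equal depth kept its gap without that clone, with 203 ± 14.6 in mixed and 279 ± 16.96 in LSK-only bone marrow and 204 ± 17.3 in mixed and 258 ± 16.4 in LSK-only spleen, again without overlap.

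The leading clones together held similar shares in both groups, while those behind GFP_Barcode_1859 averaged a smaller share in mixed mice. The 10 clones of the highest mean share over the 7 mice held 78.25% ± 6.02 of GFP reads in mixed and 75.3% ± 1.71 in LSK-only bone marrow, and 93.9% ± 1.40 in mixed and 93.2% ± 2.10 in LSK-only spleen. They made up 5.40% of GFP reads in GMPLSK_T0 and 5.51% in LSK_T0. Without GFP_Barcode_1859 the other 9 held 39.1% ± 7.01 in mixed and 47.3% ± 2.996 in LSK-only bone marrow, where the groups overlapped. In spleen they held 36.1% ± 4.54 in mixed mice (range 30.6% to 41.7%). In LSK-only spleen they held 45.2% ± 1.68 (43.9% to 47.1%), without overlap. On the log2 scale, 3 of the 10 were higher and 7 lower in mixed bone marrow (median -0.30). In spleen 3 were likewise higher and 7 lower in mixed mice (median also -0.30). Over all clones tested, 104 of 175 were lower in mixed bone marrow (median -0.43) and 54 of 73 in mixed spleen (median -0.57). With GFP_Barcode_1859 left out and the rest rescaled, the median was -0.20 over 195 clones in bone marrow and -0.42 over 110 in spleen.

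GFP_Barcode_7785, the largest of the 10 in the pools (rank 4 in GMPLSK_T0 and 3 in LSK_T0, at 1.82% and 2.08%), held 11.4% (11.45), 14.9%, 10.7% and 10.3% of bone marrow GFP reads in mixed mice 17, 18, 19 and 20, against 14.1%, 11.96% and 12.3% in LSK-only mice 1, 2 and 3. The ranges overlapped, and it was the second clone of 6 of the 14 columns. GFP_Barcode_100907 held 5.56%, 3.94%, 9.15% and 3.62% in mixed and 8.79%, 11.3% and 8.82% in LSK-only bone marrow, and was high in only 1 of the mixed mice. GFP_Barcode_29850 held 4.18%, 4.63%, 5.25% and 13.3% in mixed and 4.91%, 8.49% and 13.2% (13.155) in LSK-only bone marrow, so that 1 mouse of each group stood near 13%. The log2 differences of these 3 clones in bone marrow were -0.12 ± 0.30, -0.88 ± 0.41 and -0.43 ± 0.44 (SE), with limma adjusted p-values of 0.914, 0.494 and 0.798.

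Some clones differed more between the tissues of a mouse than between the groups. GFP_Barcode_2255, which held 0.0354% of GMPLSK_T0 and 0.0391% of LSK_T0, made up 7.81%, 6.46%, 7.18% and 4.58% of spleen GFP reads in mixed mice 17, 18, 19 and 20, against 7.46%, 8.89% and 6.52% in LSK-only mice 1, 2 and 3. In bone marrow the same clone held 0.318% to 1.03% in mixed and 0.274% to 1.18% in LSK-only mice. In spleen it stood 184 times above its pool share in mixed and 195 times in LSK-only mice, next to 107 and 104 times for GFP_Barcode_1859. GFP_Barcode_16972 held 3.97%, 4.03%, 2.27% and 3.79% in mixed and 5.46%, 4.78% and 4.68% in LSK-only bone marrow, the other of the 10 besides GFP_Barcode_1859 whose groups did not overlap there (log2 difference -0.53 ± 0.47 SE, limma adjusted p = 0.798). None of the 10 clones was free of overlap in spleen. Over all clones tested, the share without overlap was 2.86% higher and 9.71% lower in mixed bone marrow, and 2.74% higher and 11% lower in mixed spleen.

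The remaining 4 of the 10 varied widely between mixed bone marrows, and all but GFP_Barcode_74372 also between LSK-only bone marrows. In bone marrow GFP_Barcode_8037 held 2.06%, 2.99%, 11.2% and 1.56% in mixed mice 17, 18, 19 and 20, against 6.21%, 3.76% and 2.04% in LSK-only mice 1, 2 and 3, so that mixed mouse 19 alone carried the high value. GFP_Barcode_15135 ranged over 0.254% to 4.35% in mixed and 1.12% to 4.64% in LSK-only bone marrow, GFP_Barcode_74372 over 0.261% to 2.36% in mixed and 0.620% to 0.956% in LSK-only bone marrow, and GFP_Barcode_29725 over 1.06% to 4.75% in mixed and 0.987% to 5.46% in LSK-only bone marrow. In spleen GFP_Barcode_15135 held 1.72%, 2.55%, 0.419% and 0.909% in mixed mice, against 0.404%, 0.292% and 0.594% in LSK-only mice. All but 1 of the mixed spleens lay above every LSK-only spleen for it (log2 difference 1.46 ± 0.65 SE, limma adjusted p = 0.368).

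**Figure D3:**
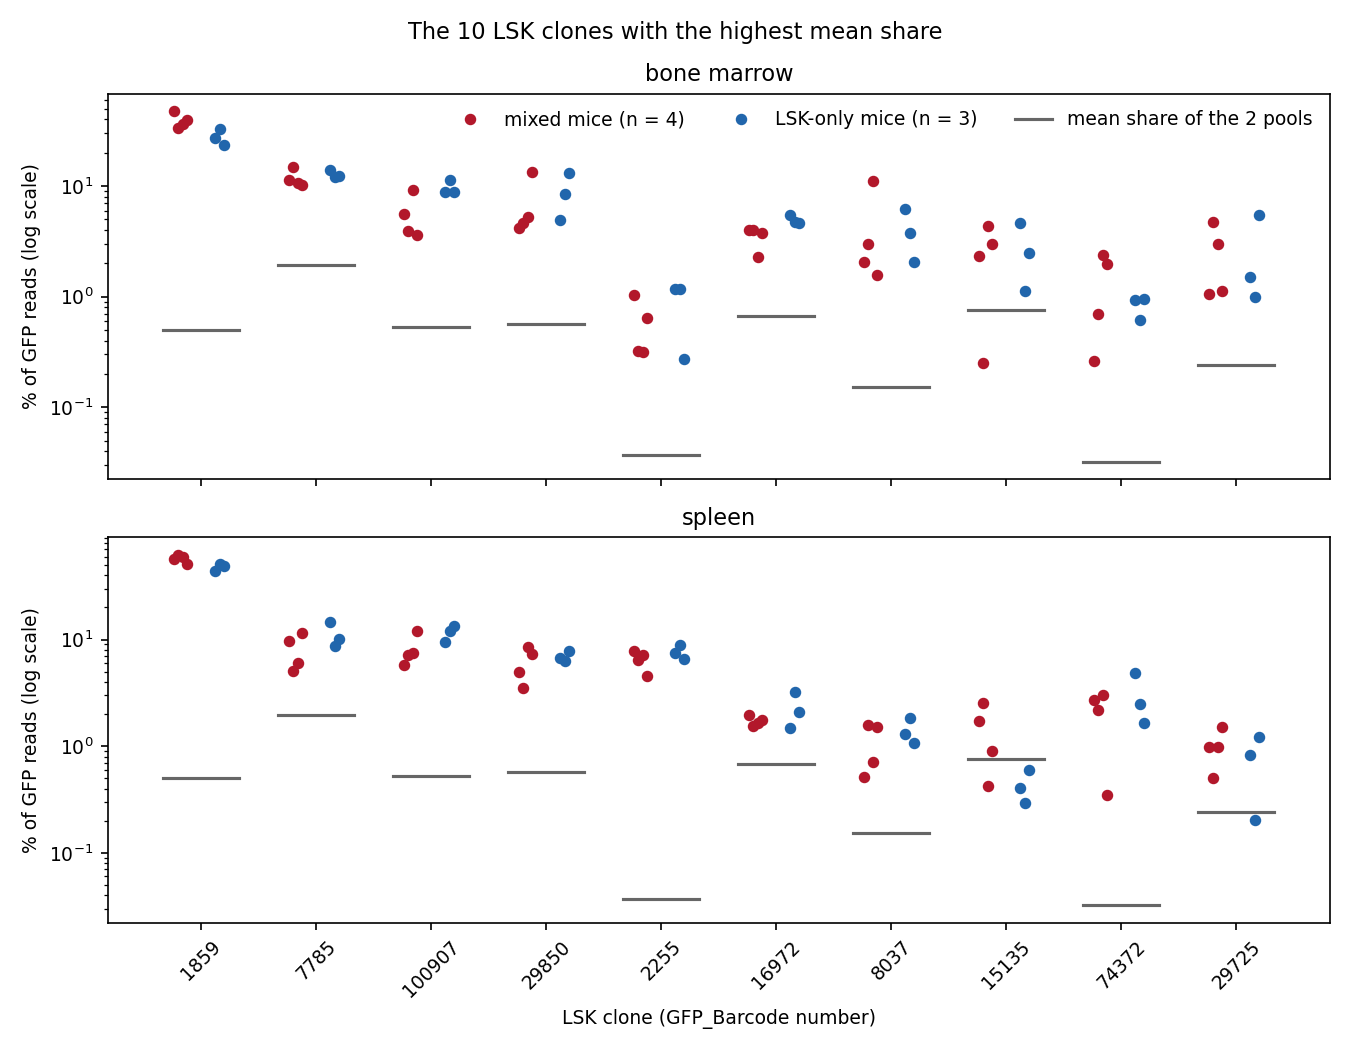
Share of GFP reads (%, log scale) of the 10 LSK clones with the highest mean share, red mixed (n = 4) and blue LSK-only mice (n = 3), with a grey bar at the clone's mean share of the 2 pools. GFP_Barcode_1859 leads every column, and the groups overlap for all 10 clones except GFP_Barcode_1859 and GFP_Barcode_16972 in bone marrow.

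Mice of different groups shared most of their composition. The overlap of 2 columns, the sum over clones of the smaller of the 2 shares, averaged 69.6% of GFP reads over the 12 pairs of a mixed and an LSK-only bone marrow, beside 70.4% over the 6 mixed pairs and 76.8% over the 3 LSK-only pairs. In bone marrow the LSK-only pairs ranged over 74.8% to 77.9%, above every mixed pair (67.5% to 72.2%). The between-group pairs there began at 64.3%, and the highest of them lay just above the lowest LSK-only pair. In spleen the overlap averaged 83.6% between the groups (range 76.5% to 90.2%) and 84.9% within mixed mice (78.3% to 89.6%). Within LSK-only mice it averaged 87.6% (85.2% to 90.5%), so the spleen ranges overlapped widely. These pairs share mice and were not tested. The top 10 of a mixed and of an LSK-only mouse shared 6.92 clones on average in bone marrow and 7.83 in spleen, beside 7 within mixed and 7.33 within LSK-only bone marrow and 8 within either group in spleen.

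Median differences between mice of a group were larger within mixed than within LSK-only mice for all clone sizes except the rarest in bone marrow. For clones averaging at least 1% of GFP reads, they were 1.32 on the log2 scale in mixed and 0.95 in LSK-only bone marrow (11 clones), and 0.71 in mixed and 0.51 in LSK-only spleen (9 clones). Among the 51 bone marrow clones averaging 0.1 to 1% of GFP reads, the median difference between 2 mice was 2.86 on the log2 scale within mixed and 1.23 within LSK-only mice. Among the 16 such spleen clones it was 1.41 in mixed and 0.766 in LSK-only mice. For clones averaging 0.01 to 0.1% the values were 2.65 in mixed and 2.87 in LSK-only bone marrow (113 clones) and 1.93 in mixed and 1.42 in LSK-only spleen (48 clones). These are descriptions over clones of the same mice, with no test.

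Across mice, 247 LSK clones were detected in at least 1 of the 7 bone marrows and 136 in at least 1 of the 7 spleens. In bone marrow, 130 clones were detected in both groups, which is 69.1% of the 188 found in mixed and 68.8% of the 189 found in LSK-only mice. In spleen, 69 were in both, 65.1% of the 106 found in mixed and 69.7% of the 99 found in LSK-only mice. Any 3 of the 4 mixed mice together held 168 bone marrow clones on average (range 164 to 172), against 189 in the 3 LSK-only mice, and 94.25 spleen clones (93 to 98), against 99. Clones present in each of 3 mice numbered 52.8 on average in mixed (50 to 55) and 64 in LSK-only bone marrow, and 34.0 in mixed (32 to 36) and 40 in LSK-only spleen. All 7 mice shared 39 clones in bone marrow and 28 in spleen.

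The clones of a spleen were mostly those of the marrow of the same mouse. Clones detected in both tissues numbered 50.25 ± 1.5 in mixed and 58.0 ± 2.65 in LSK-only mice (SD, n = 4 and 3). They made up 84.2% ± 2.04 of the spleen clones in mixed and 85.8% ± 2.09 in LSK-only mice, and 49.0% ± 3.80 of the bone marrow clones in mixed and 49.9% ± 1.73 in LSK-only mice. The overlap of shares between the tissues was 66.3% ± 9.65 in mixed and 66.4% ± 4.53 in LSK-only mice.

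Whether a clone was detected in a mouse depended steeply on its share of the pool in both groups. Clones were binned by their share of the GFP reads of a pool, and survival is the percentage of a bin that was detected. Of the 87 clones at or over 0.3% of LSK_T0, bone marrow held 47.1% ± 4.501 in mixed and 51.3% ± 4.04 in LSK-only mice (SD, n = 4 and 3). The value was 18.7% ± 2.10 in mixed and 22.8% ± 5.33 in LSK-only bone marrow for 123 clones of 0.1 to 0.3%, and 8.84% ± 1.43 in mixed and 10.8% ± 1.14 in LSK-only bone marrow for 232 clones of 0.03 to 0.1%. It was 6.01% ± 0.799 in mixed and 5.34% ± 1.22 in LSK-only bone marrow for 237 clones of 0.01 to 0.03%, and 0.802% ± 0.181 in mixed and 1.13% ± 0.327 in LSK-only bone marrow for the 530 clones below that. The groups overlapped in each of these 5 bins.

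In spleen, at the minimum that defines detected clones, the gap was widest among the largest pool clones. Of the same 87 clones, the spleens of mixed mice held 26.1% ± 3.17 (range 22.99% to 29.9%) and those of LSK-only mice 34.9% ± 3.32 (31.0% to 36.8%), which is 22.75 clones in mixed and 30.3 in LSK-only mice, without overlap. The difference, mixed minus LSK-only, was -8.72 points and had an exact permutation p of 0.0571 and an adjusted p of 0.381 over the 20 survival tests. For clones of 0.1 to 0.3%, 0.03 to 0.1% and 0.01 to 0.03% of LSK_T0, spleen survival was 12.2%, 4.85% and 3.16% in mixed and 12.5%, 5.32% and 3.23% in LSK-only mice. Below 0.01% it was 0.613% in mixed and 0.377% in LSK-only spleens, which is 3.25 against 2.00 clones of 530. The bin with the widest gap depended on the minimum. At the lower minimum given below, the gap was wider at 0.1 to 0.3% and at 0.03 to 0.1% than in the largest bin.

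Binning by the mixed pool gave the same picture. Of the 86 clones at or over 0.3% of the GFP reads of GMPLSK_T0, bone marrow held 47.7% ± 4.55 in mixed and 51.9% ± 4.08 in LSK-only mice, and spleen held 26.5% ± 3.20 in mixed and 35.3% ± 3.36 in LSK-only mice. The spleen difference, mixed minus LSK-only, was -8.82 points and again had an exact permutation p of 0.0571 and an adjusted p of 0.381. In bone marrow, clones of 0.03 to 0.1% survived in 7.35% ± 0.882 in mixed and 9.39% ± 1.78 in LSK-only mice, where the groups met at 8.16% (exact permutation p = 0.0571, adjusted 0.381). None of the 20 survival tests passed the threshold of 0.05 at the minimum of 100 per 1000000. At a minimum of 10 per 1000000, survival was lower in mixed spleens in the 4 larger bins of both pools, each with the smallest exact permutation p, 0.0286, and an adjusted p of 0.0476. The smallest LSK_T0 bin passed in the other direction in spleen, by 0.566 points. Bone marrow survival also passed, lower in mixed mice, at 0.1 to 0.3% and 0.03 to 0.1% of LSK_T0 and at 0.03 to 0.1% of GMPLSK_T0. At that minimum the number of detected clones did not pass in either tissue (adjusted p = 0.0571 each, exact permutation test). At a minimum of 1000 per 1000000 the spleen differences in the 4 larger bins were -1.63, -1.15, -0.43 and -0.32 points by LSK_T0 and -1.65, -1.90, 0 and -0.33 points by GMPLSK_T0, and none passed (adjusted p of 0.686 to 1, exact permutation test).

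**Figure D4:**
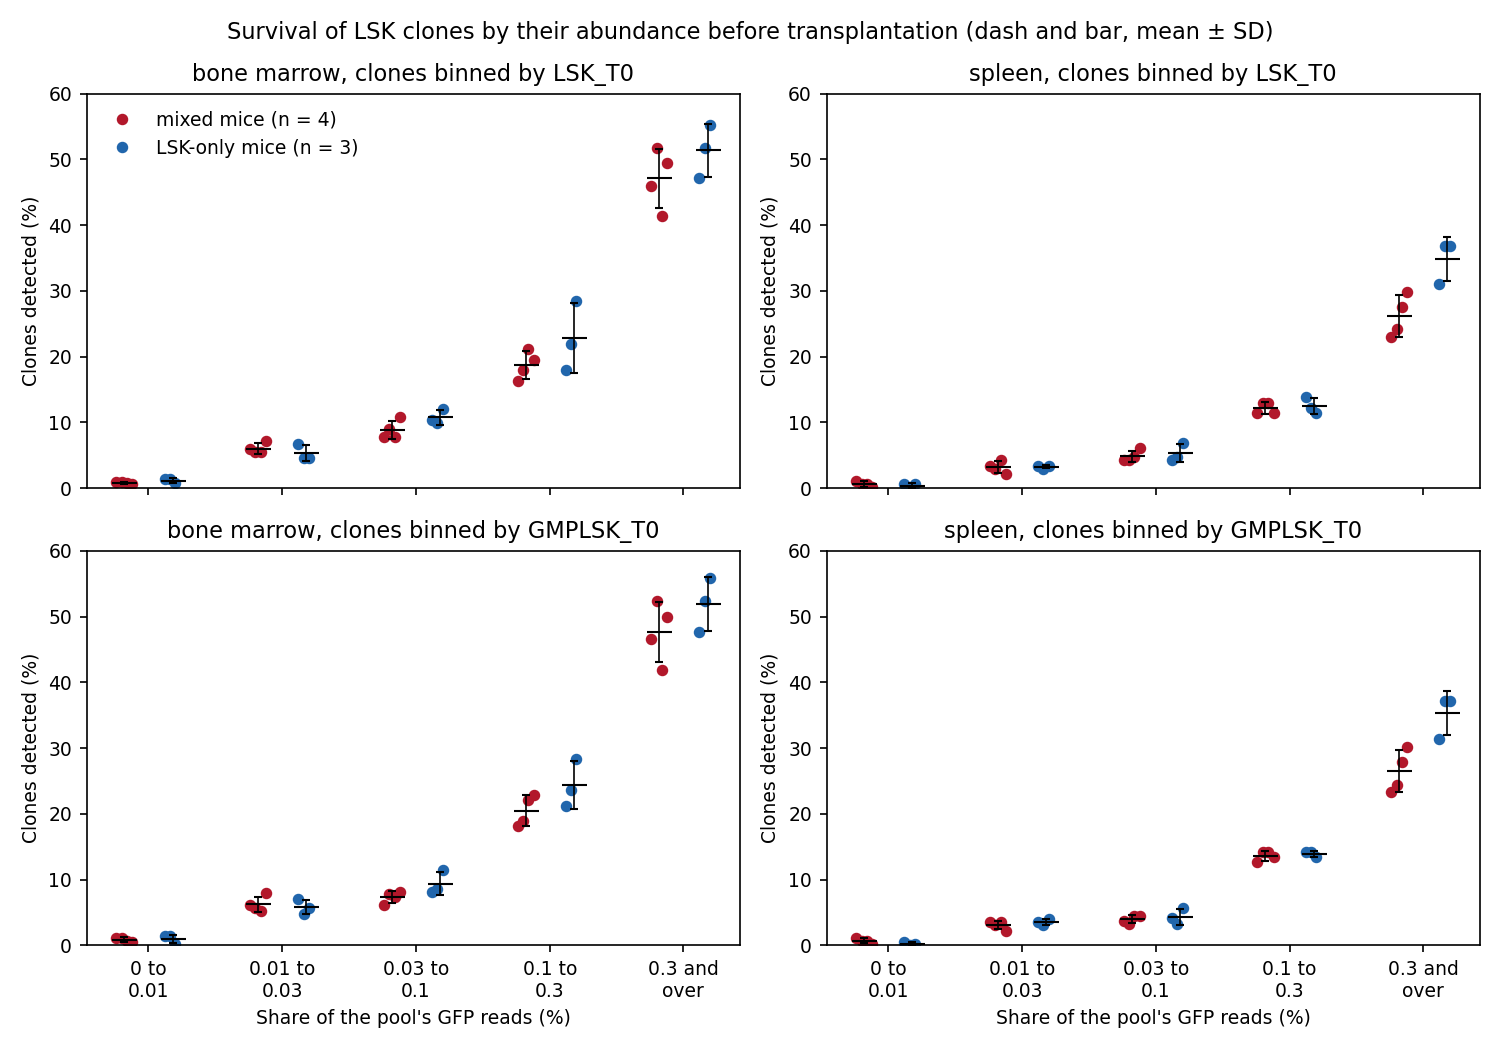
Percentage of LSK clones detected (at or over 100 per 1000000 GFP reads) by the clone's share of the GFP reads of LSK_T0 (upper row) or GMPLSK_T0 (lower row), in bone marrow (left) and spleen (right). Points are mice, red mixed (n = 4) and blue LSK-only (n = 3), with mean ± SD; in spleen the largest bin is 26.1% in mixed and 34.9% in LSK-only mice by LSK_T0.

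A clone of the mixed graft can also be placed by its share of the whole graft, GMP cells included, and detected by its share of all reads of the mouse. On that footing, chosen after seeing the data and given with no test, the bone marrow groups overlapped in every bin. It was 52.8% ± 6.00 of 36 clones in mixed and 51.3% ± 4.04 of 87 clones in LSK-only mice at or over 0.3% of the graft, and 24.7% ± 3.02 of 81 in mixed and 22.8% ± 5.33 of 123 in LSK-only mice at 0.1 to 0.3%. It was 10.5% ± 1.35 of 191 in mixed and 10.8% ± 1.14 of 232 in LSK-only mice at 0.03 to 0.1%, and 5.43% ± 0.727 of 235 in mixed and 5.34% ± 1.22 of 237 in LSK-only mice at 0.01 to 0.03%. In spleen the corresponding values were 30.6%, 10.8%, 6.68% and 1.91% in mixed and 34.9%, 12.5%, 5.32% and 3.23% in LSK-only mice, without overlap at 0.1 to 0.3% and at 0.01 to 0.03%. With the same bins but detection by GFP reads, the largest bin in bone marrow held 61.8% ± 7.31 of the 36 clones in mixed and 51.3% ± 4.04 of the 87 in LSK-only mice, without overlap. By share of the GFP reads of a pool, as above, the mean of that bin was lower in mixed mice.

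Many of the largest pool clones were detected in no mouse. Of the 87 clones at or over 0.3% of LSK_T0, 20 were detected in no bone marrow and 43 in no spleen of the 7 mice, while 20 were detected in all 7 bone marrows and 14 in all 7 spleens. In bone marrow 25 of the 87 were in all 4 mixed and 35 in all 3 LSK-only mice, counts that differ in the number of mice they require. GFP_Barcode_13743, the largest clone of both pools at 2.47% of GMPLSK_T0 and 2.55% of LSK_T0, held at most 0.0938% in mixed and 0.0794% in LSK-only bone marrow, and at most 0.00392% in mixed and 0.02745% in LSK-only spleen. GFP_Barcode_61835, the next at 2.45% and 2.52%, held 0.0170% to 0.418% in mixed and 0.00180% to 1.09% in LSK-only bone marrow. GFP_Barcode_1207, at 2.03% and 2.06%, reached 1.31% in 1 mixed bone marrow and stayed at or below 0.0258% in LSK-only bone marrow. GFP_Barcode_3877, at 1.74% and 1.87%, held 0.529% ± 0.398 in mixed and 0.724% ± 0.0949 in LSK-only bone marrow. Of the 5 largest pool clones, GFP_Barcode_7785 alone averaged above its pool share.

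Detected clones had a higher median pool share than all clones of the pool in both groups. The median pool share of detected clones was 0.145% to 0.187% in mixed and 0.129% to 0.178% in LSK-only bone marrow, and 0.135% to 0.192% in mixed and 0.178% to 0.237% in LSK-only spleen, each in the mouse's own pool, where the median over all clones was 0.0187% in GMPLSK_T0 and 0.0143% in LSK_T0. Clones at or over 0.3% of LSK_T0 held 61.4% of that pool's GFP reads. They held 78.3% ± 4.65 of bone marrow GFP reads in mixed and 77.7% ± 3.82 in LSK-only mice, and 84.4% ± 1.71 of spleen GFP reads in mixed and 82.0% ± 3.55 in LSK-only mice.

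Single clones were then compared by limma on log2 of GFP-rescaled CPM plus 10, a scale that understates the differences of rare clones, with Benjamini-Hochberg adjustment. In bone marrow 175 clones averaged at least 100 per 1000000 and were tested, and 0 had an adjusted p under 0.05 (0%). In spleen 73 were tested and 0 were called (0%). At an unadjusted p under 0.05 there were 17 in bone marrow (1 higher and 16 lower in mixed mice) and 9 in spleen (3 higher and 6 lower). By edgeR's quasi-likelihood test on the recovered reads, 0 were called in either tissue, with or without TMM scaling. The log2 difference, mixed minus LSK-only, was positive for 71 and negative for 104 clones in bone marrow, and positive for 19 and negative for 54 in spleen. Its sign can differ from that of the mean shares. These counts rest on scaling to the GFP total: the median log2 difference of -0.43 in bone marrow became 0.56 when columns were centred on their median clone, and that of -0.57 in spleen became -0.08 when centred and 0.17 by edgeR with TMM.

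Clones whose groups did not overlap were mostly lower in mixed mice. In bone marrow 5 of the 175 clones (2.86%) were higher and 17 (9.71%) lower in every mixed than in every LSK-only mouse. In spleen 2 of the 73 (2.74%) were higher and 8 (11%) lower. With no difference between the groups, each direction has a probability of 0.0286 per clone. The clones share the same mice and GFP totals and are not independent, so the counts were not tested against it. Clones entered by their mean over the 7 mice, so some passed the minimum only through the group in which they were high. In bone marrow GFP_Barcode_62077 averaged 0.000200% in mixed and 0.202% in LSK-only mice, and GFP_Barcode_31917 averaged 0.0202% in mixed and 0.00161% in LSK-only mice. These counts are therefore a description only. By size, the median log2 difference in bone marrow was -0.17 for the 11 clones averaging at least 1%, -0.68 for the 51 of 0.1 to 1% and -0.32 for the 113 of 0.01 to 0.1%. In spleen it was -0.49 for 9 clones, -0.50 for 16 and -0.74 for 48 in the same order.

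**Figure D5:**
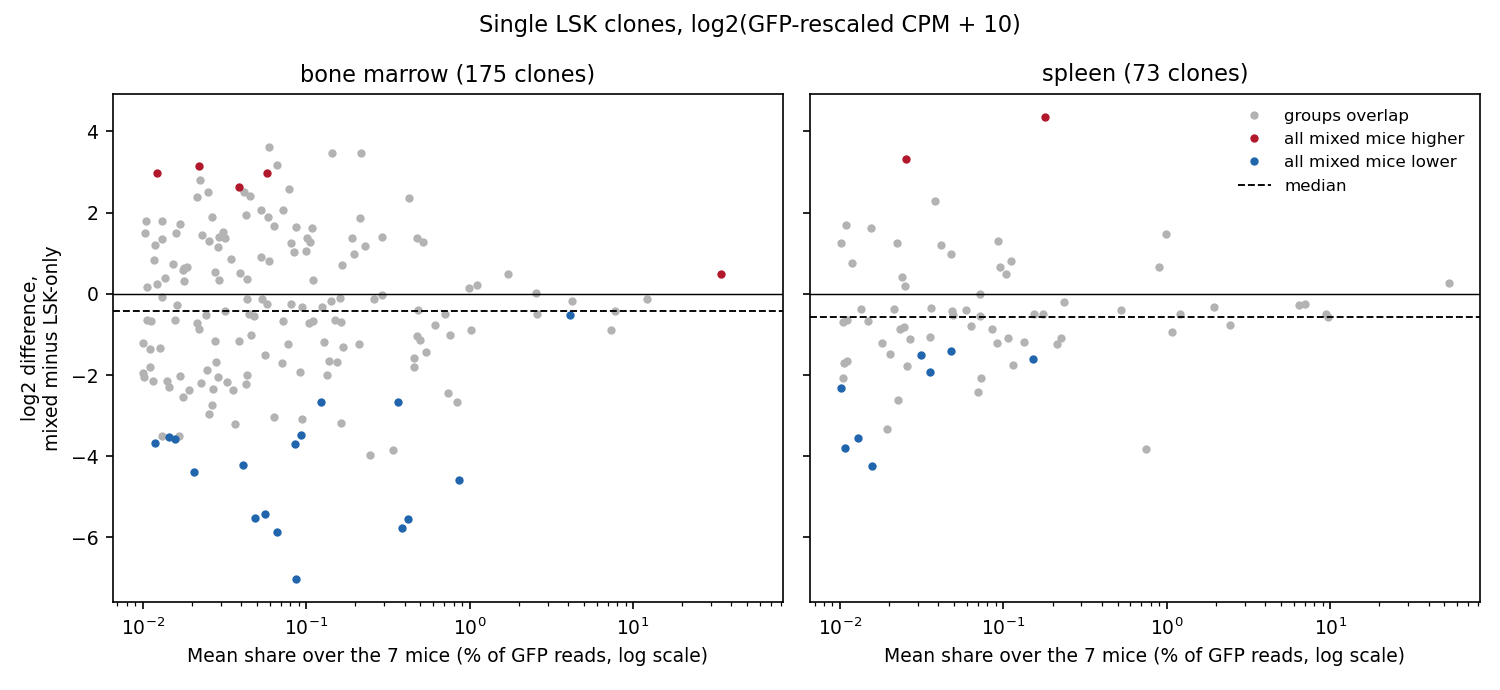
Log2 difference of single LSK clones, mixed minus LSK-only (vertical axis), against their mean share over the 7 mice (%, log scale), in bone marrow (left, 175 clones) and spleen (right, 73 clones). Red and blue mark clones without overlap that were higher or lower in mixed mice; the dashed median lies at -0.43 in bone marrow and -0.57 in spleen.

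Among the bone marrow clones without overlap, the one with the smallest p was nearly missing from mixed mice. GFP_Barcode_62077 had 0, 0, 1 and 14 reads in mixed mice 17, 18, 19 and 20, against 26022, 5253 and 8749 reads in LSK-only mice 1, 2 and 3, where it held 0.420%, 0.0706% and 0.116% of GFP reads. It was the 1 clone detected in every LSK-only and in no mixed bone marrow, and it had started at 0.0112% of GMPLSK_T0 and 0.0110% of LSK_T0. Its log2 difference was -7.03 ± 1.78 (SE, limma adjusted p = 0.0818). GFP_Barcode_7670 held 0.0372%, 0.000338%, 0.0407% and 0.0455% in mixed and 0.387%, 1.18% and 1.23% in LSK-only bone marrow, and GFP_Barcode_75494 held 0.00319%, 0.263%, 0.236% and 0.104% in mixed and 1.67%, 1.21% and 2.58% in LSK-only bone marrow. Both were present in every mixed mouse at a small part of the LSK-only level, with log2 differences of -5.54 ± 1.56 and -4.58 ± 1.31 (SE, limma adjusted p = 0.0943 for each). In spleen the same 2 clones overlapped between the groups, with GFP_Barcode_7670 at 0.124% ± 0.203 in mixed and 0.103% ± 0.0247 in LSK-only mice.

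On the higher side, the 3 bone marrow clones with the smallest p among those without overlap were GFP_Barcode_1859, GFP_Barcode_414 and GFP_Barcode_31917. GFP_Barcode_1859 had a log2 difference of 0.49 ± 0.21 (SE, limma adjusted p = 0.423). GFP_Barcode_414, at 0.386% of GMPLSK_T0 and 0.428% of LSK_T0, held 0.0739%, 0.0820%, 0.0453% and 0.170% (0.17001) in mixed and 0.00503%, 0.0203% and 0.00825% in LSK-only bone marrow, below its pool share throughout. In spleen its means lay the other way, at 0.00212% ± 0.00162 in mixed and 0.00477% ± 0.000594 in LSK-only mice, with overlap and too low to be tested. GFP_Barcode_31917 held 0.0117%, 0.0129%, 0.0297% and 0.0265% in mixed and 0.000823%, 0.00266% and 0.00134% in LSK-only bone marrow. Their log2 differences were 2.98 ± 1.65 and 2.98 ± 1.78 (SE, limma adjusted p = 0.565 and 0.599). GFP_Barcode_31917 and GFP_Barcode_15879 (named after its values were seen) were the 2 clones detected in every mixed and in no LSK-only bone marrow. GFP_Barcode_15879 averaged 0.0633% in mixed and 0.00628% in LSK-only bone marrow. In spleen GFP_Barcode_31917 overlapped between the groups, at 0.0232% ± 0.0269 in mixed and 0.0319% ± 0.0283 in LSK-only mice.

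In spleen the 2 clones without overlap on the higher side were GFP_Barcode_6595 and GFP_Barcode_12672. GFP_Barcode_6595 held 0.701%, 0.412%, 0.0640% and 0.0532% in mixed mice 17, 18, 19 and 20, against 0.0122%, 0.00250% and 0.0132% in LSK-only mice 1, 2 and 3 (log2 difference 4.36 ± 1.10 SE, limma adjusted p = 0.138). In bone marrow it overlapped between the groups, at 0.166% ± 0.150 (0.1499) in mixed and 0.273% ± 0.139 in LSK-only mice. GFP_Barcode_12672 held 0.0799%, 0.0520%, 0.00494% and 0.0343% in mixed and 0.00128%, 0.00256% and 0.00260% in LSK-only spleen. Its log2 difference there was 3.32 ± 1.11 (SE, limma adjusted p = 0.265). In bone marrow its means lay the other way, at 0.00260% ± 0.00264 in mixed and 0.0262% ± 0.0423 in LSK-only mice, with overlap. Whether the difference of either clone differed between the tissues was not tested.

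The 3 spleen clones with the smallest p on the lower side included a pair of barcodes that moved as one. GFP_Barcode_71452 had 2, 0, 0 and 25 reads in mixed spleens 17, 18, 19 and 20, against 3957, 3018 and 161 in LSK-only spleens 1, 2 and 3. GFP_Barcode_148945 had 12, 0, 0 and 28 reads in mixed and 2855, 1817 and 182 in LSK-only spleens. In bone marrow GFP_Barcode_71452 was at 0 reads in 3 of 4 mixed mice and at 0.0268% in mouse 20, against 0.0683%, 0.167% and 0.204% in LSK-only mice, and GFP_Barcode_148945 was at 0 in the same 3 mixed mice and at 0.0210% in mouse 20, against 0.0530%, 0.121% and 0.145% in LSK-only mice. Log2 shares of the pair correlated at r = 0.999 over the 14 columns, and in the 6 columns where both were detected their log2 ratio was 0.47 ± 0.13 (SD), beside 0.44 in GMPLSK_T0 and 0.42 in LSK_T0. They had been large in the pools, at 0.638% and 0.469% of GMPLSK_T0 and 0.629% and 0.470% (0.46992) of LSK_T0. Spleen log2 differences were -4.24 ± 1.41 and -3.79 ± 1.37 (SE, limma adjusted p = 0.265 for each). With both tissues in 1 fit and the mouse as a random replicate block, limma called both lower (log2 differences -5.05 and -4.65, adjusted p = 0.0172 for each) and GFP_Barcode_62077 lower (-4.44, adjusted p = 0.0434). GFP_Barcode_62077 overlapped in spleen, at 0.000261%, 0%, 0.000372% and 0.00781% in mixed mice 17, 18, 19 and 20, against 0.00309%, 0.0122% and 0.00567% in LSK-only mice 1, 2 and 3. The fit with the mouse as a block used 1 within-mouse correlation, 0.189, for all clones. GFP_Barcode_71452 and GFP_Barcode_148945, the pair that moved as one, and GFP_Barcode_62077 were the 3 clones called of 143 in that fit, against 0 in each tissue alone. On the mean of both tissues per mouse, limma called 0 of the same 143 clones, with an adjusted p of 0.0779 for each of these 3. Each of the 3 averaged below 0.01% in mixed mice in either tissue and passed the minimum only through the LSK-only mice. Their p-values in these fits are therefore a description only. The third spleen clone, GFP_Barcode_8289, held 0%, 0.00235%, 0.000304% and 0.000755% in mixed and 0.00686%, 0.0122% and 0.0684% in LSK-only spleen (log2 difference -3.54 ± 1.29 SE, limma adjusted p = 0.265). In bone marrow it reached 0.265% in mixed mouse 18 and at most 0.0442% in LSK-only mice.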

How the data were processed

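Barcodes were amplified from genomic DNA, per the labels, whose extraction protocol instead describes a droplet preparation of single cells. The authors deposited CPM, counts per 1000000 reads of a column, with barcodes filtered and the 2 PCR duplicates collapsed, by a rule not given in the sources used here. Bowtie 1.2.2 and R 3.6 were used, per the submitters' processing notes. Aligner settings, barcode reference and filters are not given in the sources used here. Replicates are mice, but all received cells of 1 transduced pool per origin. Whole reads could be recovered: 100% of the values came out whole to within 0.01 of a read. Nothing says which mice shared a cage or day, and 0 columns belonged to samples outside the labels.

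GFP values were divided by the GFP total of the column. Clones at or over 100 per 1000000 GFP reads were called detected. Clone numbers and effective clones were compared as log2, shares and survival in percentage points, by exact two-sided permutation of the mean difference over the 35 assignments of 4 and 3 mice, with Benjamini-Hochberg adjustment over 10 tests and over 20 survival tests. Single clones were tested with limma 3.58.1 (R 4.3.3, eBayes with trend) on log2(CPM + 10), and as an alternative with edgeR 4.0.16 on the recovered reads, which called 0 clones. The statistics were tested on simulated data. The members and lists were chosen with earlier results of these data known. Clones named were the 10 of the highest mean share, up to 5 called per direction and tissue, the 3 per direction and tissue with the smallest p among those without overlap, and the 5 largest of the pools. Bone marrow and spleen share mouse numbers because they come from the same mouse, so a fit with the mouse as a replicate block was among the alternatives, with another minimum, pseudocount, index, scaling, pool reference or tool, or with a mouse or library left out.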

Additional observations from a re-analysis of the deposited data

Results flagged for a closer look

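Of 60 sets of 4 mixed mice examined for a mouse far from the others, 5 held one. Chance gives about 1 in 20 for independent sets of normally spread values. These sets share mice, and some hold the same values. In bone marrow GFP_Barcode_29850 stood at 13.346% of GFP reads in mixed mouse 20, GFP_Barcode_8037 at 11.158% in mixed mouse 19, and GFP_Barcode_16972 at 2.2744% in mixed mouse 19, the last below the other mixed mice. GFP_Barcode_62077 reached 0.00075129% in the bone marrow of mixed mouse 20, and GFP_Barcode_71452 reached 0.00072577% in its spleen, each still below every LSK-only mouse in that tissue.

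Outside the comparison, GFP barcodes made up 0.94399% of the bone marrow reads of GMP-only mouse 6, which received no GFP cells, most of it in GFP_Barcode_167047. In the spleen of mixed mouse 18, 1.0587% of reads lay in barcodes seen in none of the LSK, GMP and mixed pools.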

How the results depend on the processing

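Each of the 10 measures of clone number and dominance kept its direction under every alternative setting of minimum, depth, index, scale, pool and library and with any 1 mouse left out. With GFP_Barcode_1859 left out, effective clones in spleen turned to a log2 difference of 0.058046 and the largest clone in spleen to -3.5451 points. Survival differences (points, mixed minus LSK-only) passed at 10 per 1000000 by LSK_T0 in bone marrow at 0.1 to 0.3% (-7.1816) and 0.03 to 0.1% (-5.1006), by GMPLSK_T0 in bone marrow at 0.03 to 0.1% (-4.898), and in spleen at -5.8429, -10.569, -7.3635, -4.0436 and 0.56604 from the largest to the smallest bin of LSK_T0 and at -5.5233, -11.089, -6.1224 and -4.4956 in the 4 larger bins of GMPLSK_T0. Survival changed sign at that minimum in bone marrow at 0.01 to 0.03% (-2.0745 by LSK_T0 and -2.7778 by GMPLSK_T0) and in the smallest GMPLSK_T0 bin (0.094697), which at 1000 per 1000000 gave 0.13258. At 1 read after thinning it was -6.0558 and -6.6902 at 0.01 to 0.03% in bone marrow and -0.71065 and -0.59122 in the smallest bins in spleen. Detection in either tissue gave 0.031447, -0.18275, 0.32197 and 0.35162, and bins of all reads gave -0.28369 and 0.39267. With 1 mouse left out, the ranges that crossed 0 were -0.1462 to 0.98684 (GMPLSK_T0, 0.01 to 0.03%) and -0.51136 to 0.056818 (smallest bin) in bone marrow, and in spleen -0.91837 to 0.30612 (GMPLSK_T0, 0.03 to 0.1%), -0.42194 to 0.28129, -0.96983 to 0.32328 and -0.81301 to 0.4065 (LSK_T0, 0.01 to 0.03%, 0.03 to 0.1% and 0.1 to 0.3%). Left-out fits cannot go below p = 0.1 (3 against 3 mice) or 0.0667 (4 against 2) in the exact permutation test. The cause of these changes was not tested.

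Single clones called by limma numbered 1 in bone marrow without the trend and relative to the pool given (GFP_Barcode_62077, lower), 1 when centred on the median clone (GFP_Barcode_1859, higher) and 1 in spleen without the library that stands apart. With the mouse as a replicate block there were 3, and on the mean of both tissues per mouse 0 of the same 143 clones (smallest adjusted p = 0.0779). These 3, GFP_Barcode_62077 among them, passed the minimum only through the LSK-only mice. With 1 mouse left out there were 0 to 3 in bone marrow (3 without mixed mouse 18, 1 without mixed mouse 17 or 19) and 0 to 1 in spleen (without mixed mouse 18 or 20). Centring moved the median difference to 0.56 in bone marrow and -0.08 in spleen. It turned GFP_Barcode_7785 (0.8697), GFP_Barcode_100907 (0.10966), GFP_Barcode_29850 (0.5602), GFP_Barcode_2255 (0.48709), GFP_Barcode_16972 (0.45908), GFP_Barcode_8037 (0.81938) and GFP_Barcode_15135 (0.49654) positive in bone marrow, and GFP_Barcode_29850 (0.22144), GFP_Barcode_2255 (0.23953) and GFP_Barcode_16972 (0.15832) in spleen. Relative to the pool, GFP_Barcode_7785 gave 0.068037 and GFP_Barcode_29725 gave -0.055338. In bone marrow edgeR gave GFP_Barcode_8037 0.14945 and GFP_Barcode_29725 -0.097296 without TMM, and 0.17632 and -0.10359 with it. In spleen edgeR with TMM gave GFP_Barcode_7785 0.1315, GFP_Barcode_100907 0.071759, GFP_Barcode_29850 0.32245, GFP_Barcode_2255 0.28862, GFP_Barcode_16972 0.17234 and GFP_Barcode_8037 0.2427. GFP_Barcode_15135 and GFP_Barcode_74372 in bone marrow gave 0.44449 and -0.16218 as the mean of both tissues and 0.48363 and -0.2754 with the replicate block. Without GFP_Barcode_1859, GFP_Barcode_7785 (0.12564) and GFP_Barcode_8037 (0.075227) in bone marrow and GFP_Barcode_29850 (0.04147) and GFP_Barcode_2255 (0.059574) in spleen were positive. With 1 mouse left out, GFP_Barcode_15135 ran over -1.0274 to 0.4085, GFP_Barcode_29725 over -0.50311 to 0.73023, GFP_Barcode_74372 over -0.20714 to 0.85125 and GFP_Barcode_8037 over -0.77015 to 0.21612 in bone marrow, and GFP_Barcode_29725 over -0.11287 to 1.1646 in spleen.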

Other observations

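Some GFP barcodes moved together over the 14 columns. Of the 10153 pairs among the 143 barcodes tested in the fit over both tissues, 12 pairs had log2 shares correlated at r of at least 0.95, where the median pair had 0.143. The pairs were picked for this likeness, so the correlations are a description with no test. In 7 of the pairs both barcodes were detected in 6 or more columns, and the SD of their log2 ratio over those columns was 0.129 to 0.486. GFP_Barcode_16022 and GFP_Barcode_21010, and GFP_Barcode_11863 and GFP_Barcode_102032, were detected in all 14 columns, with log2 ratios of 0.45 ± 0.19 and -0.15 ± 0.19 (SD), beside 0.29 and -0.11 in GMPLSK_T0 and 0.28 and -0.10 in LSK_T0. With each pair counted as 1 clone, a choice made after seeing the data, detected clones numbered 95.5 ± 5.92 in mixed and 109 ± 8.50 in LSK-only bone marrow, and 54.5 ± 2.38 in mixed and 63.7 ± 4.62 in LSK-only spleen (SD, n = 4 and 3).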
